A study of Mus musculus with 19 samples.

Results

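Bptf and 9 further genes of the ISWI chromatin remodelling complexes were followed in 19 mouse lymphomas. The 10 genes were chosen by name, as Bptf and the subunits that share complexes with it or with its motor proteins: Bptf, Smarca5, Smarca1, Rbbp4, Rbbp7, Baz1a, Baz1b, Baz2a, Cecr2 and Rsf1. All 10 were present among the 21086 genes of the expression table, and all 10 passed the filter on low values (4 or more libraries with a value of 1 or higher), which 19927 genes passed. All tumours came from Eμ-Myc mice, which carry a Myc transgene driven in B cells by the enhancer of the immunoglobulin heavy chain, so the controls carried the oncogene too.

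The study compared tumours of Bptf+/+; Eμ-Myc mice (WT) with tumours of mice that carried 1 deleted Bptf allele besides the transgene (Bptf+/Δ; Eμ-Myc, HET), each split into early and late onset. There were 6 early WT tumours (onset at 9 to 17 weeks), 5 late WT tumours (28 to 76 weeks), 4 early HET tumours (8 to 13 weeks) and 4 late HET tumours (30 to 66 weeks). The sources used here do not give the exons that the deleted allele lacks or the cell types in which it was deleted. A library came from 1 flash-frozen tumour piece, and the labels do not say whether every tumour came from a separate mouse, so p-values measure the spread between these samples. Numbers such as HET_late_2 only name libraries.

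ISWI remodellers are motor proteins that slide nucleosomes along DNA with the energy of ATP. The motor is either SMARCA5 (SNF2H) or SMARCA1 (SNF2L), and the large partner it binds decides which complex forms. BPTF is the large subunit of NURF and reads histone H3 trimethylated at lysine 4 through a PHD finger and acetylated histones through a bromodomain. BAZ1A (ACF and CHRAC), BAZ1B (WICH), BAZ2A (NoRC), RSF1 (RSF) and CECR2 (CERF) are the large subunits of sister complexes. RBBP4 and RBBP7 are histone-binding WD40 proteins that NURF shares with several other chromatin complexes. BPTF is known as a cofactor that MYC needs for full binding to its target genes, which is the background for asking how the dose of Bptf bears on Myc-driven lymphoma.

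MYC and MAX bind the sequence CACGTG, the canonical E-box, so the bases before the start of each gene were searched for it. RefSeq sequences (GRCm38.p6) were matched for 7 of the 10 genes (Bptf, Smarca5, Smarca1, Rbbp4, Rbbp7, Baz1b and Baz2a). In the 250 bases upstream of the start, CACGTG was found in 2 of the 7, Bptf and Rbbp4, and in 6.02% of all 32851 windows of that length. The motif is its own reverse complement, so both strands are covered by 1 search. Both promoters are shown because they are the ones with a match, with CACGTG in capitals and the rest in lower case, 5′ to 3′ on the strand of the gene.
Bptf, chr11:107132148-107132397, minus strand, motif 43 bases upstream of the start: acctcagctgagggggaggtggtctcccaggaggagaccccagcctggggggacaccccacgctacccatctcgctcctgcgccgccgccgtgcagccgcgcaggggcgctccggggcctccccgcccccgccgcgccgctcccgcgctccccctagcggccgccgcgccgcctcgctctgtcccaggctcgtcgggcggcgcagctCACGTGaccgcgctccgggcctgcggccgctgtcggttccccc
Rbbp4, chr4:129335371-129335620, minus strand, motif 224 bases upstream of the start: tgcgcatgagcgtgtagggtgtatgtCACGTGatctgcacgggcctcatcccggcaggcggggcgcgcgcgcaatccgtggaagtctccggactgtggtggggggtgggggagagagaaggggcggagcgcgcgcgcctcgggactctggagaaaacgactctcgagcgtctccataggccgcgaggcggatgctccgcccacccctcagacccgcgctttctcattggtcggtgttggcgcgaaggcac
Both windows lie in sequence upstream of the first exon. A match describes these letters only. Binding was not measured in these samples.

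The libraries held 8297856 to 12497732 reads. 1 tumour, labelled a lymphoma like the others, stood apart in its summed B cell markers. In HET_early_2 the summed normalised read count of 12 pan-B cell genes was 2086.9, against 22165.5 to 60230.9 in the other 18 tumours, and none of 4 defining markers was at 0 (Cd79a 38.5, Cd79b 54.5, Pax5 30.6, Ebf1 280.5). Cd79a, Cd79b and Pax5 lay below the lowest of the other 18 tumours (103.3, 2736.6 and 482.5), whereas Ebf1 lay inside their range (23.1 to 2529.8). The medians of those 18 were 4578.9 for Cd79a and 985.7 for Ebf1, so single markers also ran low elsewhere. Its 8 cartilage genes summed to 855194 (19.7 to 11793.8 elsewhere), its 8 skeletal muscle genes to 340171 (83.4 to 5357.0 elsewhere), and its 20 proliferation genes to 9213.0 (29005.3 to 70988.6 elsewhere). Values without HET_early_2 are therefore set beside many of the results. WT_early_6 was within the range of the others in its pan-B cell genes (42938.3). Its 4 salivary gland genes, however, summed to 749672 (15.7 to 252.5 in the other 18 tumours). In 3 libraries the most abundant gene was not Eef1a1: Bpifa2 in WT_early_6 (5.07% of reads), Col2a1 in HET_early_2 (4.36%) and Igha in HET_late_4 (5.55%). Summed counts of 4 Y-linked genes ran from 0 to 1744.0 in early WT and 0 to 1313.9 in late WT tumours. They ran from 0 to 1552.7 in early HET and 0 to 1854.9 in late HET tumours. Median limma estimates of these genes were 1.35 for genotype and 1.71 for onset. Smarca1 and Rbbp7 lie on chromosome X. The part of sex in their values was not tested beyond fits with the mean of the Y-linked genes as a covariate. In bulk tissue, fewer cells of a type and less RNA per cell cannot be told apart.

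A second feature of the libraries bears on long genes. For 9310 protein-coding genes, each tumour's log2 value was set against the gene's median over all tumours, and genes were grouped by the length of their longest coding transcript. In HET_late_2 the median deviation was -1.25 for genes of 10 kb or longer and 1.33 for genes under 1 kb. HET_late_4 had -0.63 and 0.53. WT_late_2 (-0.37 and 0.23) and HET_late_3 (-0.34 and 0.21) leaned the same way less steeply, and in the other 15 tumours the long class lay between -0.14 and 0.23. With a longest coding transcript of 12.0 kb, Bptf is longer than 98.9% of these genes, Rsf1 (11.1 kb) longer than 98.4%, Cecr2 (9.2 kb) than 96.6% and Baz2a (8.4 kb) than 95.3%, whereas Rbbp7 (2.2 kb) is longer than 28.5%. For this reason values are also given after a smooth trend on length was removed from each library.

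**Figure D1:**
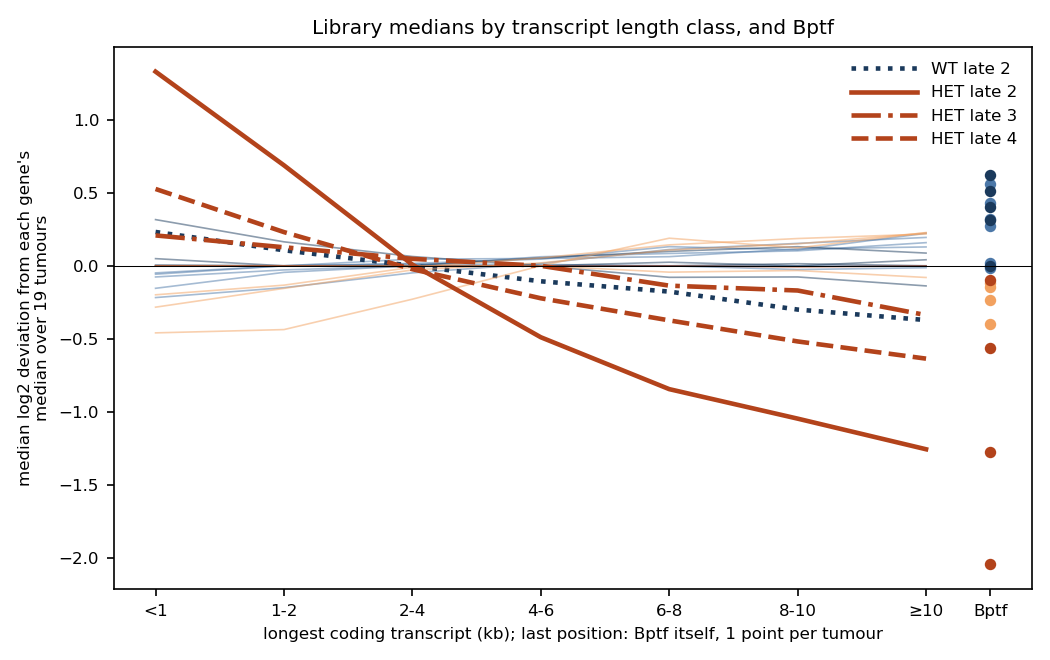
Median log2 deviation of 9310 coding genes from their own medians over 19 tumours (vertical axis), by class of longest coding transcript in kb (horizontal axis), 1 line per tumour, with WT in blue and HET in orange and red, and late tumours in the darker shade. The points at the right are Bptf itself, 1 per tumour. HET_late_2 falls from 1.33 to -1.25 and HET_late_4 from 0.53 to -0.63, and these 2 tumours also hold the 2 lowest Bptf points.

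Bptf lies on chromosome 11 (GRCm38, 107033081 to 107132127, minus strand, ENSMUSG00000040481.17). Its normalised read count was between 1664.7 and 2480.0 in early WT tumours (median 2065.2) and was 1680.9, 2391.1, 2585.7, 2086.7 and 2217.2 in late WT tumours. Early HET tumours had 1551.4, 1431.6, 1276.8 and 1521.3, and late HET tumours 1573.3, 407.6, 1136.7 and 694.1. All 8 HET tumours lay below all 11 WT tumours, the early HET tumours within a narrow band and the late ones spread over a wide one.

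No other tested gene separated the genotypes in this way: of 19927 genes, 1 (0.00502%), Bptf, had every HET value below every WT value, and 0 had every HET value above. The log2 difference averaged over onset was -0.92, with an exact two-sided permutation p of 3.78e-05 when genotypes were permuted within onset class, the smallest p this design allows. It was -0.92 without HET_early_2 and -0.75 without HET_late_2, and each had the smallest p its design allows (9.45e-05 and 8.50e-05, exact permutation tests). Tested with limma across all genes, Bptf missed the threshold of 0.05 (-0.92 ± 0.19 (SE), Benjamini-Hochberg adjusted p = 0.493), as it did with edgeR (-0.86, adjusted p = 0.339). DESeq2 on the recovered reads called it (-0.85 ± 0.20, SE, adjusted p = 0.0276), among 0.0903% of all genes tested. The authors' deposited table called it too (-0.81, adjusted p = 0.0381), among 0.338% of its genes.

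**Figure D2:**
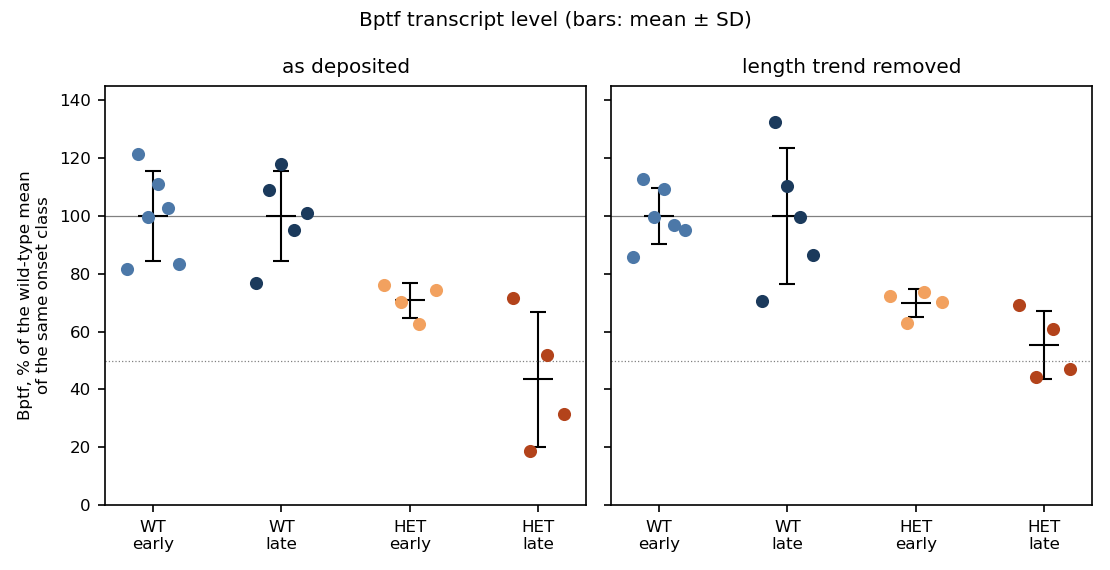
Bptf in each tumour as a percentage of the mean of WT tumours of the same onset class, as deposited (left) and with the length trend of each library removed (right). Points are tumours, bars are mean ± SD, and the grey lines mark 100% and 50%. Late HET tumours run from 18.6% to 71.8% on the left and from 44.4% to 69.2% on the right.

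Loss of 1 of 2 alleles leaves 1 intact copy, which makes the level relative to WT tumours of interest. Early HET tumours had 76.0%, 70.1%, 62.6% and 74.5% of the early WT mean (70.8% ± 6.04, SD, n = 4). Late HET tumours had 71.8%, 18.6%, 51.8% and 31.7% of the late WT mean (43.5% ± 23.3, SD, n = 4). The 2 lowest were HET_late_2 and HET_late_4, the tumours with the steepest length trends. With the trend removed, early HET tumours had 72.3%, 63.1%, 73.8% and 70.4% (69.9% ± 4.77, SD, n = 4) and late HET tumours 69.2%, 44.4%, 60.8% and 47.2% (55.4% ± 11.7, SD, n = 4). The SD of the late HET tumours was smaller with the trend removed, whereas that of the late WT tumours was larger (15.6 as deposited and 23.6 with the trend removed, n = 5). WT_late_1, the lowest late WT tumour, stood at 76.7% of its group mean as deposited and at 70.5% with the trend removed, close to HET_late_1.

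Removing the trend left the separation by genotype in place. Again 1 of the 14693 genes with a length (0.00681%), Bptf, had every HET value below every WT value. The margin was narrow, however. On the log2 scale HET_late_1, the highest HET tumour, deviated by -0.028 from the gene's median, and WT_early_1, the lowest WT tumour, by -0.024. The averaged difference was then -0.68 (exact permutation p = 3.78e-05, again the smallest possible). In early tumours the difference was -0.49 as deposited (exact permutation p = 0.00952) and -0.51 with the trend removed (exact permutation p = 0.00476, the smallest possible). In late tumours it was -1.36 (exact permutation p = 0.00794, the smallest possible) and -0.84 (exact permutation p = 0.0159). DESeq2 called Bptf in late tumours (-1.20, adjusted p = 0.0242, with 0.176% of all genes called), and limma did not (adjusted p = 0.773). The larger difference among late tumours was not established as a difference: limma's interaction was -0.87 ± 0.38 (SE, adjusted p = 0.714) as deposited and -0.33 ± 0.24 (SE, adjusted p = 0.889) with the trend removed.

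A direct comparison with equally long genes gave a like result. Bptf minus the median of genes of 10 kb or longer ran from -0.04 to 0.88 on the log2 scale in WT tumours and from -0.79 to -0.10 in HET tumours, with no overlap. This difference was -0.70 over both classes (exact permutation p = 3.78e-05, the smallest possible), -0.52 among early tumours (p = 0.00476, exact permutation test) and -0.88 among late ones (p = 0.0159, exact permutation test). Marker lists of cell types and of proliferation also leaned with genotype, though limma called 0 of their genes (0.0% of all genes were called). All 20 proliferation genes had lower estimates in HET tumours (median -0.53 on the log2 scale, and -0.20 without HET_early_2), 7 of them at an unadjusted p under 0.05 (4.81% of all genes). Of 12 pan-B cell genes 11 had lower estimates (median -1.03, and -0.38 without HET_early_2). All 10 T cell genes had higher estimates (median 1.61, against 0.06 for all genes), 2 of them at an unadjusted p under 0.05 (5.16% of all genes). All 10 macrophage, all 10 stromal and all 10 endothelial genes had higher estimates too, with medians of 0.57, 0.68 and 0.48 (0.39, 0.33 and 0.24 without HET_early_2). Summed T cell counts ran from 109.1 to 8987.9 in WT and from 428.7 to 8667.6 in HET tumours. With a score of T cell, macrophage, stromal and endothelial genes as a covariate, the limma estimate for Bptf was -0.83 ± 0.22 (SE).

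Onset gave no difference in Bptf that passed an exact test or limma's adjusted threshold. The late minus early difference averaged over genotype was -0.33 (exact permutation p = 0.243) and turned to 0.12 (exact permutation p = 0.322) with the length trend removed. Within WT tumours it was 0.10 (exact permutation p = 0.472). Within HET tumours it was -0.77 (exact permutation p = 0.143), and -0.05 (exact permutation p = 0.771) with the trend removed. For the deposited values in HET tumours, limma gave -0.77 ± 0.29 (SE, limma unadjusted p = 0.0159, adjusted p = 0.167).

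The genes around Bptf were examined because the 2 lowest tumours could also be low in the surrounding chromosome. For 28 protein-coding genes within 1 Mb, the median deviation per tumour lay between -0.03 and 0.22 in WT tumours. It was -0.22 in HET_late_2 and -0.16 in HET_late_4, and -0.64 in HET_early_2, whose Bptf was in the middle of the early HET tumours. With the length trend removed it was -0.081 in HET_late_2, -0.24 in HET_late_4 and -0.62 in HET_early_2. Over 69 genes within 5 Mb it was 0, -0.089 and -0.14 in that order. None of the 28 neighbours was called for genotype by limma (0 of 19927 genes, 0.0%, were called). At an unadjusted p under 0.05, 2 were lower in HET tumours (Cep95 and Ddx5), where 4.81% of all genes were. Estimates were negative for 21 of the 28, where 44.2% of all genes were negative, with a median of -0.17 against 0.06 for all genes (-0.11 without HET_early_2). The nearest neighbours were Kpna2, an importin, 33.5 kb away (-0.27 ± 0.21, SE, and -0.051 without HET_early_2) and Nol11, a nucleolar protein, 34.5 kb away (-0.42 ± 0.21, SE, and -0.22 without HET_early_2). Bptf itself deviated by -2.04 in HET_late_2 and by -1.27 in HET_late_4. Single neighbours reached like values, -3.19 for Scn4a, -1.68 for Map3k3 and -1.52 for Prkca in HET_late_2, and -2.08 for Scn4a and -1.24 for Helz in HET_late_4. Other neighbours lay above their medians, Milr1 at 1.59, Limd2 at 1.36 and Tex2 at 1.10 in HET_late_2, and Ern1 at 1.81 and Pitpnc1 at 1.13 in HET_late_4. In HET_late_2, 16 of the 28 were below their medians. In HET_late_4 all were below except Pitpnc1, Polg2, Psmd12, Ern1, Tcam1, Prkca, Ccdc47 and Strada.

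The other 9 genes differed less by genotype than their spread allowed to call. Limma called 0 of the 10 genes for genotype averaged over onset, as for all genes (0 of 19927, 0.0%), edgeR called 0 (background 0.0%) and DESeq2 called 1, Bptf (background 0.0903%). Estimates were negative for 9 of the 10, where 44.2% of all genes were negative, with a median of -0.36 against 0.06 for all genes. At an unadjusted p under 0.05, 4 of 10 were lower in HET tumours (Bptf, Baz1b, Baz1a and Rsf1) where 4.81% of all genes were. Bptf, the gene with the deleted allele, is among these 4. Such shares were not particular to the ISWI genes. They were 6 of 13 for CHD and INO80 family remodellers and 4 of 12 for writers of lysine 4 methylation. For genes of NuRD and other complexes with RBBP4 or RBBP7 it was 5 of 21, and for proliferation genes 7 of 20. The median over the 10 was -0.33 without HET_early_2, -0.31 without HET_late_2 and -0.23 with the length trend removed. All genes had medians of 0.03, 0.06 and 0.13 in the same settings. With the score of other cell types as a covariate, Smarca5 (0.05), Rbbp4 (0.05) and Cecr2 (0.08) turned positive.

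**Figure D3:**
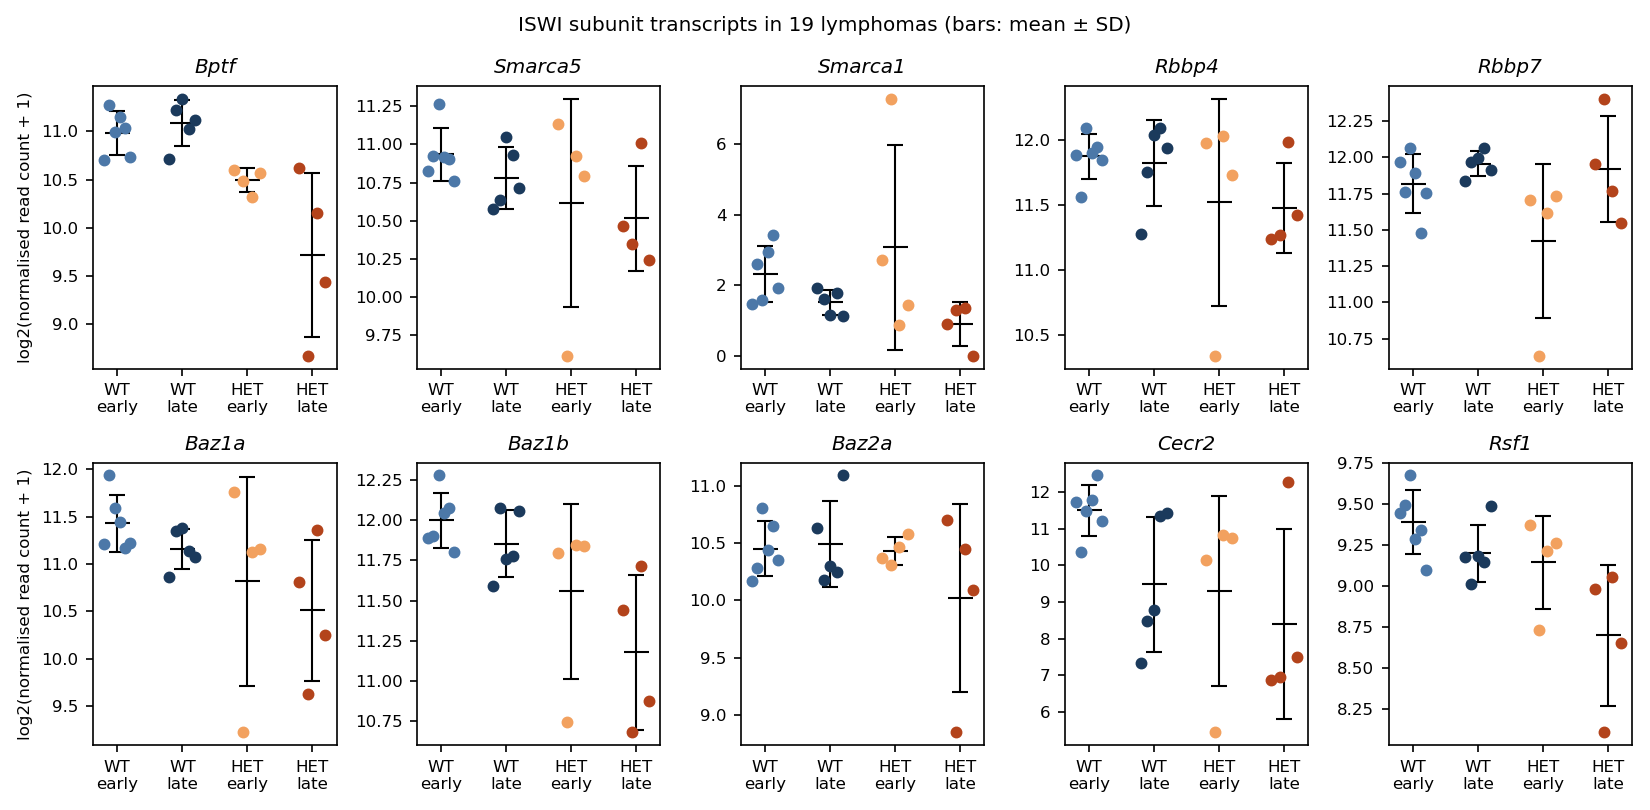
Normalised read count of each of the 10 genes in 19 tumours as log2(value + 1), with 1 panel per gene and its own vertical scale. Points are tumours in 4 groups and bars are mean ± SD. Bptf is the 1 panel in which no HET point reaches the WT points, Cecr2 splits into a high and a low set, and Smarca1 has a single high point at 155.5 normalised reads (HET_early_2).

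Levels were compared between genes per kilobase of annotated exon, using the normalised read count. Rbbp7 was the most abundant, with a median of 1256 per kb over 19 tumours (545.1 to 1861), followed by Rbbp4 at 433.5 (148.4 to 500.9), and their ranges did not overlap. Baz1a (321.4), Baz1b (261.1) and Smarca5 (233.6) came next, with overlapping ranges. Baz2a (123.1), Bptf (119.4) and Cecr2 (101.0) formed a lower step with overlapping ranges, Cecr2 running from 2.49 to 329.1. Rsf1 was lower at 30.4 (14.4 to 42.8), and Smarca1 was at the floor with 0.32. With the length of the longest coding transcript in place of all annotated exon, Rbbp7 (1628) and Rbbp4 (860.1) were again the highest, but their ranges overlapped (706.7 to 2413 and 294.4 to 993.9), Baz1b (549.6) lay above Baz1a (371.9), and Cecr2 (187.3) above Baz2a (156.4) and Bptf (139.7). By both lengths NURF's own large subunit was less abundant per kb by its median than those of ACF and WICH, and more abundant than that of RSF. The length trend of the libraries was not removed from these levels. Bptf (12.0 kb) and Rsf1 (11.1 kb) are longer than Baz1a (6.2 kb) and Baz1b (6.5 kb), and the part of length in this ranking was not tested.

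Smarca5 was the ISWI motor transcript of these tumours. Its normalised read count ran from 1733.9 to 2463.6 in early WT tumours (median 1927.0) and was 1524.1, 1591.0, 2119.4, 1952.6 and 1680.5 in late WT tumours. It was 2248.8, 782.9, 1944.6 and 1769.6 in early HET tumours and 1413.0, 1299.1, 2062.6 and 1209.0 in late HET tumours. The groups overlapped and HET_early_2 was the lowest. The limma genotype difference was -0.29 ± 0.17 (SE, adjusted p = 0.515), and -0.13 without HET_early_2. The onset difference was -0.13 ± 0.17 (SE, adjusted p = 0.720), -0.29 without HET_early_2, and turned to 0.093 with the length trend removed.

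Smarca1, the alternative motor, was nearly silent. It had 0 to 9.8 normalised reads in 18 tumours and 155.5 in HET_early_2, the tumour with the cartilage and muscle transcripts, and whether those cells are its source was not tested. HET_late_4 had 0 reads, which allows up to 4.52 normalised reads at the limit of 3 counts. In the 5 tumours with more than 3 Smarca1 reads, Smarca5 per kb exceeded Smarca1 by a factor of 154.0 to 316.6 in 4 and by 3.96 in HET_early_2. In HET_late_4 it was at least 210.6-fold higher, set against the same limit of 3 counts in that library. In the other 13 tumours, with 1 to 3 reads, no factor is given. With 1 added to each value, no genotype difference was detectable in the log2 balance (-0.36, exact permutation p = 0.803; 0.51, exact permutation p = 0.142, without HET_early_2). Its onset difference of 1.37 did not pass (exact permutation p = 0.0619), and was 0.50 (exact permutation p = 0.131) without HET_early_2. Limma's onset difference for Smarca1 was -1.50 ± 0.63 (SE, adjusted p = 0.213), and -0.80 without HET_early_2.

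Rbbp4 and Rbbp7, the histone-binding subunits, were abundant in every tumour. Rbbp4 ran from 3022.1 to 4377.9 in early WT tumours, 2485.8 to 4380.0 in late WT, 1297.4 to 4182.2 in early HET and 2415.7 to 4055.2 in late HET tumours. Rbbp7 ran from 2856.5 to 4272.8, 3653.1 to 4283.4, 1585.8 to 3410.5 and 2984.1 to 5414.0 in the same groups. The ranges overlapped throughout, except that the highest early HET value of Rbbp7 lay below the lowest late WT value. Genotype differences were -0.35 ± 0.20 for Rbbp4 (SE, limma adjusted p = 0.510) and -0.22 ± 0.15 for Rbbp7 (SE, limma adjusted p = 0.556), and -0.15 and -0.085 without HET_early_2. Late minus early, Rbbp7 was 0.32 ± 0.15 (SE, limma adjusted p = 0.267) and Rbbp4 -0.05 ± 0.20 (SE, limma adjusted p = 0.922), and 0.18 and -0.24 without HET_early_2.

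Per kb, the ratio of Rbbp4 to Rbbp7 lay between 0.151 (HET_late_2) and 0.460 (WT_early_5), so Rbbp7 was the more abundant transcript in all 19 tumours. The log2 ratio did not differ detectably by genotype (-0.13, exact permutation p = 0.461). By onset it was -0.36 (exact permutation p = 0.0694), and -0.13 (exact permutation p = 0.478) with the length trend removed. Without HET_late_3 the onset difference was -0.47 (exact permutation p = 0.0212), and without HET_late_2 it was -0.25 (exact permutation p = 0.143). Leaving out any other single library gave no p under 0.05 in this test.

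Baz1b encodes the WSTF subunit of WICH, which acts at replicating chromatin. It ran from 3567.9 to 4964.6 in early WT tumours (median 4022.3) and was 3089.7, 4320.6, 3460.5, 3507.6 and 4257.8 in late WT tumours. Early HET tumours had 3560.0, 1716.1, 3681.0 and 3660.5 and late HET tumours 2784.2, 1643.4, 3354.3 and 1877.5. Of the HET tumours, 4 lay below every WT tumour and 4 overlapped with them. The genotype difference was -0.56 ± 0.17 (SE, limma adjusted p = 0.493), -0.42 without HET_early_2 and -0.42 ± 0.15 (SE, limma adjusted p = 0.433) with the length trend removed.

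Baz1a encodes the large subunit of ACF and CHRAC, which space nucleosomes in arrays. Its values were 2301.1 to 3915.9 in early WT tumours (median 2586.3) and 1860.6, 2607.2, 2655.6, 2246.2 and 2156.0 in late WT tumours. Early HET tumours had 3459.4, 598.2, 2231.9 and 2282.3, and late HET tumours 1796.3, 790.7, 2617.2 and 1216.5. The 3 lowest of all tumours were HET_early_2, HET_late_2 and HET_late_4, with the rest of the HET tumours inside or just under the WT range. The genotype difference was -0.63 ± 0.27 (SE, limma adjusted p = 0.493), and -0.36 without HET_early_2.

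Rsf1 encodes the histone-binding partner of SMARCA5 in RSF. It was 546.4 to 815.6 in early WT tumours (median 671.5), 515.7 to 715.5 in late WT tumours, 424.0 to 661.2 in early HET tumours and 275.1 to 531.0 in late HET tumours. Its genotype difference of -0.37 ± 0.14 (SE, limma adjusted p = 0.493) was -0.14 ± 0.11 (SE) with the length trend removed, and its onset difference of -0.32 ± 0.14 (SE, limma adjusted p = 0.232) turned to 0.11. Baz2a, the large subunit of the NoRC complex that silences ribosomal RNA genes, was 1148.1 to 1794.4, 1160.9 to 2180.7, 1268.1 to 1532.2 and 460.9 to 1664.8 in the same order of groups. Its genotype difference was -0.24 ± 0.20 (SE, limma adjusted p = 0.608), -0.05 without HET_late_2 and -0.06 with the length trend removed. The smaller estimates of Rsf1 and Baz2a with the trend removed stand beside the -0.68 of Bptf on the same scale.

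**Figure D4:**
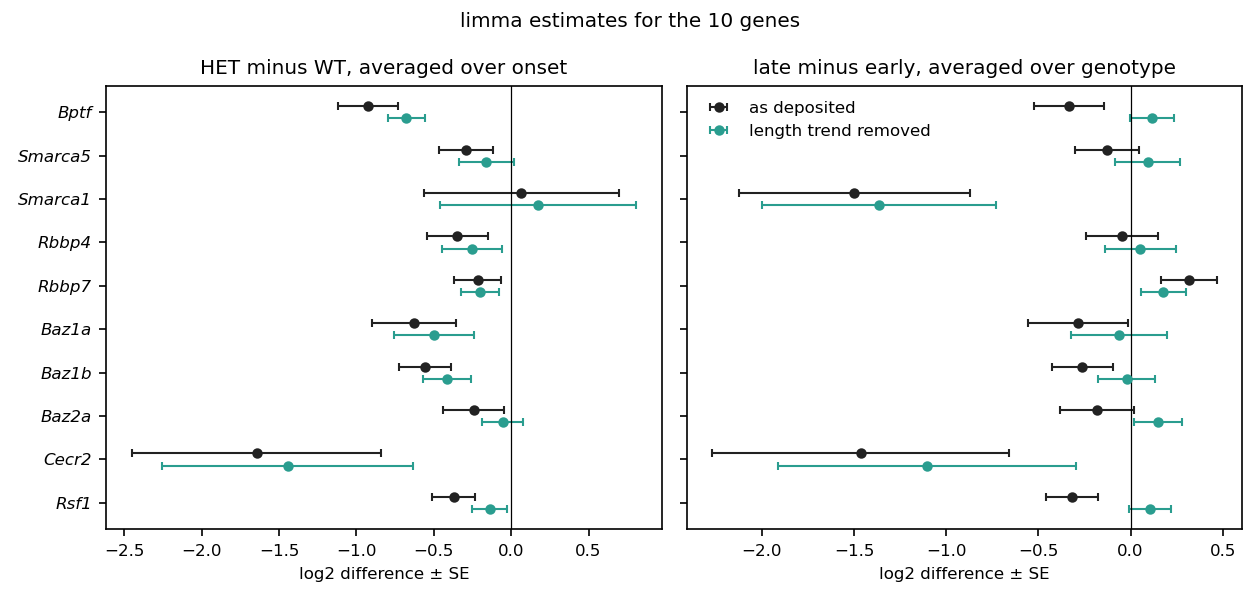
Limma log2 differences ± SE for the 10 genes, HET minus WT averaged over onset (left) and late minus early averaged over genotype (right), as deposited (black) and with the length trend of each library removed (green). For genotype Bptf moves from -0.92 to -0.68 and Rsf1 from -0.37 to -0.14, and for onset Bptf and Rsf1 cross 0.

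Cecr2, the large subunit of CERF, which is known from neural tube closure and the germ line, had the widest range of the 10 genes apart from Smarca1. Early WT tumours had 1316.4 to 5622.3 (median 3137.3) and late WT tumours 159.5, 353.7, 441.0, 2625.6 and 2782.0. Early HET tumours had 1140.7, 42.5, 1817.2 and 1725.0, and late HET tumours 115.9, 122.4, 4967.7 and 179.2. Values were thus either at or under 441.0 (7 tumours) or at or over 1140.7 (12 tumours), and 6 of the 7 low tumours were late. The differences were -1.65 ± 0.81 for genotype (SE, limma adjusted p = 0.493) and -1.46 ± 0.81 for onset (SE, limma adjusted p = 0.331). Without HET_early_2 they were -1.004 and -2.11, and without HET_late_3 -2.29 and -2.11, and none passed.

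After the 4 group means were taken out, the genes most like Cecr2 over the 19 tumours (named after their values were seen, of 9593 compared) were Bcl7a (r = 0.94), a SWI/SNF-associated protein, Tcf3 (r = 0.92), the E2A factor of B lymphopoiesis, Vpreb3 (r = 0.91), a precursor B cell protein, Gpbp1l1 (r = 0.91) and Frat2 (r = 0.91). Bcl7a, Tcf3 and Vpreb3 were also among the top 5 with the length trend removed. HET_early_2, low in B cell markers, is among the points of each.

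For onset, limma called 0 of the 10 genes where it called 87 of 19927 (0.437%). At an unadjusted p under 0.05, Smarca1 and Rsf1 were lower in late tumours (2 of 10, where 10.2% of all genes were) and 0 were higher (8.8%). The median over the 10 genes was -0.27, against -0.08 for all genes. It was -0.36 without HET_early_2, -0.15 without HET_late_2 and 0.07 with the length trend removed. All genes had -0.05, -0.05 and -0.07 in the same settings. Split by genotype, limma called 0 of 10 in WT and 0 of 10 in HET tumours (background 0.0% in both), and 0 of 10 for the interaction (0.0%). At an unadjusted p under 0.05, onset in HET tumours had Bptf and Smarca1 lower (2 of 10, with 2209 of 19927 genes). Rbbp7 was higher there (1 of 10, with 1678 of 19927). In WT tumours 0 were lower (486 of 19927) and 0 higher (480 of 19927). For the interaction Bptf alone was lower (1 of 10, with 878 of 19927). In early tumours alone 0 of 10 and in late tumours alone 0 of 10 were called for genotype (0.0% in both), and at an unadjusted p under 0.05 these were 0 lower (4.12%) and 3 lower (3.46%: Bptf, Baz1b and Rsf1).

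4 further subunits of ISWI complexes were followed for comparison. Chrac1, a histone-fold subunit of CHRAC, was 201.5 to 395.2 in early WT, 366.9 to 466.4 in late WT, 269.8 to 320.0 in early HET and 365.0 to 711.5 in late HET tumours. Only WT_early_5 among the early tumours reached the late range. The onset difference of 0.60 ± 0.15 (SE) just missed the threshold (limma adjusted p = 0.0675), with 0.0401 to 0.137 on leaving out 1 library. With the length trend removed it was 0.14 ± 0.13 (SE, limma adjusted p = 0.639). With a longest coding transcript of 0.9 kb, Chrac1 is longer than 2.75% of coding genes, at the end of the length range opposite to Bptf. Pole3, its histone-fold partner, had an onset difference of 0.04 ± 0.16 (SE, limma adjusted p = 0.910), and -0.067 without HET_early_2. Baz2b and Hmgxb4, a NURF-associated HMG box protein, had genotype differences of -0.16 ± 0.19 (SE, limma adjusted p = 0.720) and -0.24 ± 0.15 (SE, limma adjusted p = 0.529), that of Baz2b being -0.014 without HET_late_2.

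Of the 9 other genes, 4 had a profile over the tumours that followed Bptf past the threshold. Over 19 tumours, Pearson's r with Bptf was 0.80 for Rsf1 (permutation p = 0.00035, adjusted over 9 genes p = 0.00198; Spearman's rho = 0.51, permutation p = 0.0263, adjusted p = 0.0790). It was 0.78 for Baz1b (permutation p = 0.00044, adjusted p = 0.00198; rho = 0.64, permutation p = 0.00455, adjusted p = 0.0409). Baz2a (r = 0.69, permutation p = 0.00904, adjusted p = 0.0203; rho = 0.13, permutation p = 0.597, adjusted p = 0.597) and Baz1a (r = 0.66, permutation p = 0.00672, adjusted p = 0.0202; rho = 0.56, permutation p = 0.0149, adjusted p = 0.0670) also passed for r. Without the 2 tumours farthest from the median Bptf, r was 0.38, 0.47, -0.01 and 0.37 in that order, so these relations rested to a large part on those 2 tumours. These values also hold the genotype difference of Bptf.

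Within the 11 WT tumours no gene passed, the highest r being 0.57 for Baz1a (permutation p = 0.0672, adjusted p = 0.605; rho = 0.50). Within the 8 HET tumours r was 0.92 for Baz2a and 0.87 for Rsf1 (exact permutation p = 0.00531 and 0.0104, adjusted p = 0.0469 for each), and 0.29 and 0.12 without the 2 farthest tumours. With the length trend removed, Baz1b was the 1 of 9 genes that passed over all tumours (r = 0.64, permutation p = 0.00245, adjusted p = 0.0220; rho = 0.67, adjusted p = 0.0188; r = 0.57 without the 2 farthest), while Rsf1 had 0.26 and Baz2a 0.18. Within genotypes, Baz1b then had r = 0.41 in WT (permutation p = 0.204) and 0.44 in HET tumours (exact permutation p = 0.282), so it did not pass within either.

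Across all genes, after the 4 group means were taken out, the 5 with a profile most like Bptf were Cbl (r = 0.89), a ubiquitin ligase of receptor signalling, Ap4e1 (r = 0.88), an adaptor subunit of vesicle transport, Usp34 (r = 0.87), Atxn1l (r = 0.86) and Birc6 (r = 0.86). Their longest coding transcripts were 11.4, 4.6, 12.2, 7.5 and 15.8 kb. With the length trend removed the 5 were others: Mitd1 (r = 0.78), Usp42 (r = 0.75), Ss18l1 (r = 0.73), Stk11ip (r = 0.73) and Rcor1 (r = 0.70). For Smarca5 they were Suv39h2 (r = 0.96), a histone H3 lysine 9 methyltransferase, Prim2 (r = 0.95), the large primase subunit, Ckap2 (r = 0.95), Srsf10 (r = 0.95) and U2surp (r = 0.94), of which Suv39h2 and U2surp were also among the 5 with the trend removed. In Smarca5 the lowest tumour was HET_early_2 (782.9), which is among the points of these correlations. In Bptf the lowest was HET_late_2 (407.6), the tumour with the steepest length trend. HET_early_2 (1431.6) lay among the other early HET tumours in Bptf.

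Genes of other chromatin complexes from fixed lists were set beside the ISWI subunits, and none was called for genotype (background 0.0%). Over all genes 44.2% of estimates were negative, with a median of 0.06. That median was 0.03 without HET_early_2, 0.06 without HET_late_2 and 0.13 with the length trend removed. Of 21 genes of NuRD, PRC2, CAF-1 and SIN3, which use RBBP4 and RBBP7, limma called 0 for genotype, 17 had negative estimates and the median was -0.24 (-0.16 without HET_early_2). Examples were Suz12, a PRC2 core subunit, at -0.67 ± 0.27 (SE) and Chaf1a, the large CAF-1 subunit, at -0.69 ± 0.28 (SE), with -0.39 and -0.38 without HET_early_2. Of 13 CHD and INO80 family remodellers 0 were called, 12 had negative estimates and the median was -0.48 (-0.30 without HET_late_2 and -0.28 with the length trend removed), with Chd1, which binds trimethylated lysine 4, at -1.05 ± 0.36 (SE) and Chd8 at -0.54 ± 0.17 (SE). Of the 12 genes that write the histone mark BPTF reads, 0 were called and all 12 estimates were negative (median -0.37, and -0.22 with the trend removed), with Rbbp5, a core subunit of the writers, at -0.51 ± 0.15 (SE) and Kmt2a at -0.63 ± 0.26 (SE). Each of these named genes had a limma adjusted p of 0.493.
For onset, limma called 0 of the 21, 0 of the 13 and 0 of the 12 genes (background 0.437%), with medians of -0.01, -0.43 and -0.35. Mta3 and Mta2 of NuRD were among those higher in late tumours. They had 0.55 ± 0.21 (SE, limma adjusted p = 0.180) and 0.33 ± 0.13 (SE, limma adjusted p = 0.194). With the length trend removed these were 0.47 and 0.30, and without HET_early_2 0.40 and 0.20. The long genes Chd9 (12.0 kb) and Kmt2a (16.5 kb) had -0.78 ± 0.22 (SE, limma adjusted p = 0.0823) and -0.73 ± 0.26 (SE, limma adjusted p = 0.153), and -0.34 and -0.18 with the length trend removed.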

How the data were processed

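Polyadenylated RNA of 19 lymphomas was sequenced on a Genome Analyzer IIx after TruSeq preparation, per the labels' protocols. Within-batch values were not computed, because the sources used here do not tie a protocol version to a library. The submitters' processing notes name Cuffdiff, Cuffnorm, Cufflinks 2.2.1, TopHat2 2.1.1 and FastQC 0.11.5, with the builds GRCm38 and mm10. Neither the tool behind the table nor its annotation or strand setting is given in the sources used here. What the authors deposited is a normalised signal, gene counts divided by 1 size factor per library: 100% of values were whole multiples of 1 read within 0.01 reads, and whole reads were recovered from them. For 5 comparisons the authors deposited log2 fold changes with adjusted p-values.

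On the log2(value + 1) scale, the signal was fitted in limma 3.58.1 (R 4.3.3, empirical Bayes with a trend), with 4 group means and Benjamini-Hochberg adjustment over 19927 genes. EdgeR 4.0.16 (TMM, quasi-likelihood) and DESeq2 1.42.0 on recovered reads were alternatives. Single values were tested with exact two-sided permutation tests within strata, and correlations with 100000 resamples or exactly under 10 tumours (NumPy 2.4.6, SciPy 1.17.1, pandas 2.3.3). Gene lengths and coordinates came from GENCODE M21 (GRCm38), in which 16109 symbols were found. The length trend was a lowess fit (span 0.3) per library on log2 length of the longest coding transcript. Limma and the trend removal were also run on simulated counts, with the same relative spread set for all genes and a length trend put on a single library. These settings are simpler than the tumours, so no conclusion is drawn from those runs.

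The 10 genes, the gene lists, the tests and the naming rule were chosen with earlier results of these data known. The rule named all 10 genes, 4 further ISWI-linked subunits, the neighbours of Bptf within 1 Mb (median value of at least 50), the 5 genes most like Bptf and Smarca5, and up to 4 (genotype) and 2 (onset) genes per chromatin list with the smallest p. Removing the length trend, leaving out HET_early_2 and HET_late_2 together, and levels per coding transcript length were chosen after seeing the data. The limit of 3 counts used for Smarca1 covers counting error only, since reads were amplified and carry no molecular identifiers.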

Additional observations from a re-analysis of the deposited data

Results flagged for a closer look

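In 56 groups of 4 to 6 tumours, the highest or lowest value of each of the 10 genes and the 4 further subunits was compared with the gap to its neighbour by Dixon's criterion at the 95% level. Chance alone marks about 1 in 20 such groups, and 7 were marked. HET_early_2 stood apart from the other early HET tumours in Smarca1 (155.5 normalised reads, next 5.59), Rbbp7 (1585.8, next 3141.4) and Baz1b (1716.1, next 3560.0). This is the tumour with few B cell and many cartilage and muscle transcripts, and the part of those in the 3 values was not tested. HET_late_3 stood apart in Cecr2, at 4967.7 with the next late HET tumour at 179.2. WT_early_3 was high in Smarca5 (2463.6, next 1943.0) and WT_early_5 in Baz2b (886.6, next 601.5). WT_late_2 was low in Hmgxb4, at 299.7 with the next late WT tumour at 425.1.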

How the results depend on the processing

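The genotype difference of Bptf kept its direction and passed the exact permutation test under every alternative run, from -1.07 without HET_late_1 to -0.75 without HET_late_2 on leaving out 1 library. Its limma estimate did not pass in any of these, whereas DESeq2 called it averaged over onset (-0.85) and in late tumours (-1.20). With the length trend removed, the onset difference turned positive for Bptf (0.12), Smarca5 (0.093), Rbbp4 (0.053), Baz2a (0.15) and Rsf1 (0.11). Leaving out 1 library, the Bptf onset difference ran from -0.48 to -0.16, that of Rbbp4 from -0.24 to 0.038 and that of Baz2a from -0.30 to 0.013. The genotype estimate of Smarca1 turned negative with a pseudocount of 0.1 (-0.40), quantile normalisation (-0.16), array weights (-0.61), the Y-linked mean (-0.056) or the score of other cell types (-1.05) as a covariate, without the 3 libraries not led by Eef1a1 (-0.53) and without HET_early_2 and HET_late_2 (-0.70). It ran from -0.64 to 0.43 on leaving out 1 library. The same score turned Smarca5 (0.048), Rbbp4 (0.054) and Cecr2 (0.080) positive for genotype. Quantile normalisation moved the median of all genes for genotype from 0.06 to -0.04.

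The Smarca5 to Smarca1 balance was 0.11 for genotype and 1.96 for onset with a pseudocount of 0.1, the latter passing (exact permutation p = 0.0447). Leaving out 1 library it ran from -0.78 to 0.51 and from 0.50 to 1.79. The onset difference of Rbbp4 to Rbbp7 ran from -0.47 to -0.25. By Pearson's r, the correlations of Baz1a (0.54) and Baz1b (0.56) with Bptf no longer passed as deviations from group means. By Spearman's rho, Baz1a passed there (rho = 0.73, permutation p = 0.00068, adjusted p = 0.00612), whereas Baz1b did not (rho = 0.57, permutation adjusted p = 0.0549). Pearson's r of Baz2a (0.70) no longer passed without the 3 libraries. With the length trend removed, r no longer passed for Baz1a (0.56), Baz2a (0.18) and Rsf1 (0.26), while Smarca1 (-0.13) and Rbbp7 (0.40) turned sign. Within 5 Mb of Bptf the median was 0 in HET_late_2 and -0.14 in HET_early_2.

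Over all genes, DESeq2 called 18 genes for genotype, 400 in early and 35 in late tumours, 1855 for onset, 121 in WT and 1731 in HET tumours, and 96 for the interaction. Array weights gave 110 for early genotype, 667 for onset and 191 for onset in HET tumours. Onset calls were 539 with edgeR, 8 with log2 weeks, 694 with the score of other cell types, and 0 with the length trend removed, without the 3 libraries, or with the Y-linked mean. For onset in HET tumours they were 231 with the score, 21 with those 2 groups alone and 59 with quantile normalisation. On leaving out 1 library, onset calls ran from 0 to 490, those in HET tumours from 0 to 257, and genotype calls in early and in late tumours from 0 to 2. The cause of these changes was not tested. No paired analysis was possible because each tumour has a number of its own in the labels and no number is shared between groups. Smarca1, at 0 to 117 reads, is limited by depth.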
